A study of Mus musculus with 6 samples.

Results

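RNA of femur marrow macrophages, sorted by the surface proteins CD11b and F4/80, was compared between 18 days and 4 days after mice received Raji cells. The comparison took the 4 libraries labelled day 4 and day 18, 2 in each group, out of 6 in the series, and every gene that passed a filter on low values, which was 14304 of the 17528 genes listed. The filter was passed through the day 18 libraries alone by 302 of these genes, 98 of which were called higher, so that such genes were selected for being higher there. All mice were of the BALB/c strain and the genotype RAG2-/-γc-/-. Without Rag2 and the gamma chain shared by several cytokine receptors they have no mature T, B or NK cells of their own. Raji is a human Burkitt lymphoma cell line, a B cell cancer, and it was given intravenously. The 2 libraries labelled day 0 came from mice of the same strain and genotype without a graft, and their values are given beside the others as a background. Both compared groups carried the graft for different lengths of time and neither has an ungrafted group of its own day, so effects of graft, injection and elapsed time cannot be told apart. The labels call the libraries of a group replicates without naming separate animals. The p-values therefore measure only how far the libraries of a group differ, and that difference may be technical. Libraries are called A and B after the letters of the deposited columns.

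Marrow macrophages come in several kinds: resident cells that nurse red cell precursors and clear dying cells, and cells renewed from monocytes that arrive with the blood. Danger signals and cytokines act on them through a few shared routes. NF-kB is released from its inhibitors and switches on cytokines, chemokines and its own inhibitors, interleukin 6 and its relatives act through Stat3, interferons act in part through the interferon regulatory factors, and colony stimulating factor 1 acts through its receptor Csf1r. F4/80, encoded by Adgre1, is also found on eosinophils and monocytes, and CD11b, encoded by Itgam, on most myeloid cells, so a gate on both can hold more than macrophages.

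Reads assigned to listed genes numbered 20072985 to 22600716 in the 4 libraries. Values are reads per 1000000 assigned reads (RPM) after scaling between libraries, so they compare 1 gene across libraries and not 1 gene with another. A gene was called at a Benjamini-Hochberg adjusted p under 0.05 in limma, a linear model fitted to log2(RPM + 0.1) over all tested genes, and genes are said to have risen or fallen only where they were called. Of the 12 genes checked for sorting and macrophage identity, 10 rose and 2 fell slightly, and all 12 were expressed at both days. The count of falls was 0 with 1 spread assumed for genes of all levels and 1 on the RPKM scale. Adgre1 stood at 45.1 and 42.01 RPM at day 4 and 61.04 and 62.1 RPM at day 18, and Itgam at 2037 and 2044 RPM against 1940.0 and 1917 RPM. The 25 tested genes of late neutrophils took 13.3% and 13.7% of reads at day 4 and 11.8% and 11.9% at day 18, so neutrophil RNA was present at both days. In bulk RNA, fewer cells of a type and less RNA per cell cannot be told apart. Xist had 0 to 5.4 reads and Y-linked genes were present in each library.

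The data differed widely between the days. Of 14304 genes 3725 were called, or 26.0%: 1996 rose (14.0%) and 1729 fell (12.1%). The rises were the larger changes. At least 2-fold changes were called for 591 genes (4.13%), of which 556 rose (3.89%) and 35 fell (0.245%), while 179 rose and 11 fell by at least 4-fold. A test against a change of 1.5-fold called 373 genes (2.61%), with 363 higher (2.54%) and 10 lower (0.0699%), and without day 18 A that count was 245. The median absolute log2 fold change of called genes was 0.33 and the median SE over all genes 0.11. The median log2 fold change over all tested genes was 0.0066 after scaling, which sets it near 0, and 0.0379 with library totals in place of scaling factors. In every called gene both day 18 libraries lay on the same side of both day 4 libraries, as did 58.8% of all tested genes (30.0% higher, 28.8% lower). The count of calls depended on how the spread was modelled. With 1 spread assumed for genes of all levels (below, with 1 spread), in place of a spread that follows the level, 989 genes rose and 363 fell, and on the RPKM scale 1341 rose and 789 fell. Where either of these moved the count of a gene list by more than 1.5 times, that count is given with the list. Counts without 1 library are given for some lists only, and the others may have moved too.

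**Figure D1:**
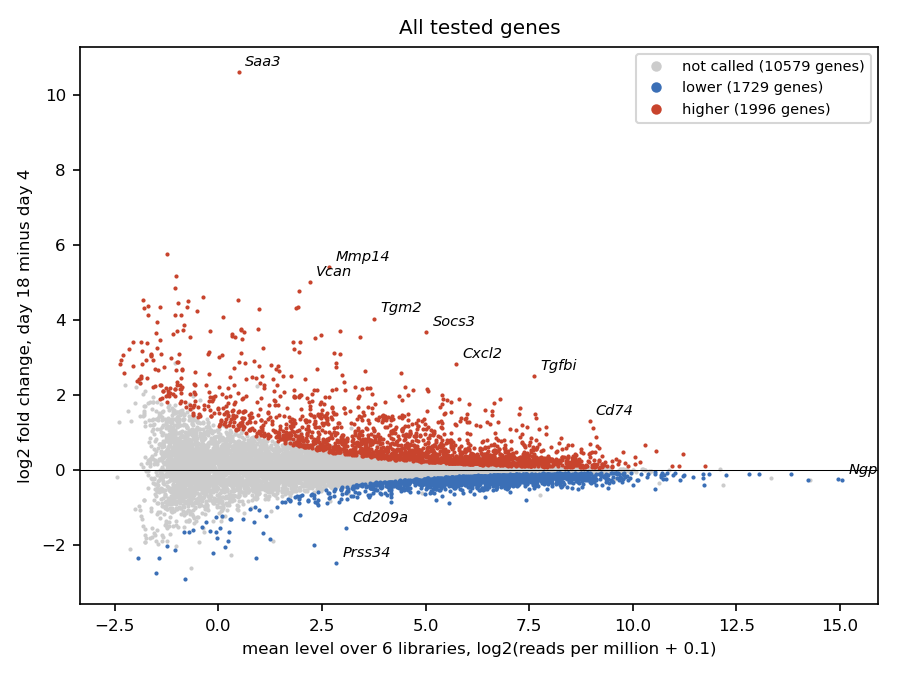
Log2 fold change of day 18 against day 4 (vertical axis) against the mean level over 6 libraries, log2(RPM + 0.1) (horizontal axis), 1 point per tested gene. The 1996 genes that rose (red) reach far higher above 0 than the 1729 that fell (blue) reach below it, and 10579 genes were not called (grey).

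Beside the genes with the largest changes, the 3 called members with the smallest p of each gene list and a set of 24 genes of general interest are described. These list members were taken from those whose log2 level averaged 1 or more. Any other gene below was chosen after its values were seen. Whole numbers of reads in every library were held by 2417 of the 3725 called genes. The others carry fractional reads, as where reads are divided between similar or overlapping genes, and their levels are less certain. They include Cfb, Tgfbi and Icam1 among the largest rises, and others are named where a whole list is touched.

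The 12 largest rises were taken from called genes whose log2 level averaged 3 or more, leaving out model names (Gm or Rik). They were Tgm2, Socs3, Cfb, Cxcl2, Bcl3, Msr1, Tgfbi, Rgs1, Plxna1, Icam1, Rgl1 and Tmem268. Tgm2, a transglutaminase that crosslinks matrix proteins, stood at 4.87 and 4.06 RPM at day 4 and 75.1 and 74.1 RPM at day 18, a 16.7-fold rise (log2 fold change 4.04, SE 0.13, adjusted p = 1.9e-19). Socs3, the feedback inhibitor of interleukin 6 family signalling, stood at 14.7 and 12.9 RPM against 183 and 175 RPM (log2 fold change 3.69, SE 0.093, adjusted p = 6.22e-21). Tgfbi, a secreted matrix protein named for its induction by TGF-beta, stood at 107 and 113 RPM against 618 and 626 RPM (log2 fold change 2.5, SE 0.038, adjusted p = 3.49e-26). In each of these genes both day 18 libraries were several times above both day 4 libraries, and day 4 was close to or below the day 0 libraries, which stood at 7.15 and 6.98 RPM for Tgm2, 12.3 and 15.03 RPM for Socs3 and 112 and 106 RPM for Tgfbi. Msr1, the class A scavenger receptor, rose 6.004-fold from 10.5 and 13.3 RPM to 73.1 and 69.7 RPM. Icam1, the adhesion ligand of beta 2 integrins, rose 4.67-fold from 14.2 and 14.5 RPM to 68.8 and 65.3 RPM. Among the remaining members, log2 fold changes were 2.35 for Rgs1, which shortens G protein signals, 2.23 for the semaphorin receptor Plxna1, 2.20 for Rgl1, an activator of Ral GTPases, and 2.20 for the transmembrane protein Tmem268.

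Saa3, an acute phase serum amyloid A made by macrophages, rose from next to nothing. It had 0 and 1 reads in the day 4 libraries, as in the day 0 libraries, and 4007 and 4330 reads at day 18 (194 and 187 RPM). The ratio of reads was 8065, with a 95% counting interval of 1447 to 318583 that covers counting error only and is wide because of the single read at day 4. Its fitted log2 fold change of 10.61 (SE 0.38, adjusted p = 4.27e-18) depends on the 0.1 RPM added before taking logs, and the gene passed the filter through the day 18 libraries alone, so that p adds nothing to the reads. In all, 43 called genes had 3 or fewer reads over a group, and 41 of them were low at day 4.

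The promoters of Saa3 and of the 4 genes with the largest rises that the RefSeq promoter table holds are printed here because they are the sites through which these genes are switched on (GRCm38.p6, 250 bases before to 50 bases after the RefSeq start, 5′ to 3′ on the strand of the gene). Capitals mark matches to 1 of 6 motifs searched on both strands. The windows are chr7:46715627-46715926 on the minus strand for Saa3, chr11:117969317-117969616 on the minus strand for Socs3, chr5:90903649-90903948 on the plus strand for Cxcl2, chr7:19822706-19823005 on the minus strand for Bcl3 and chr13:56609336-56609635 on the plus strand for Tgfbi.
Saa3: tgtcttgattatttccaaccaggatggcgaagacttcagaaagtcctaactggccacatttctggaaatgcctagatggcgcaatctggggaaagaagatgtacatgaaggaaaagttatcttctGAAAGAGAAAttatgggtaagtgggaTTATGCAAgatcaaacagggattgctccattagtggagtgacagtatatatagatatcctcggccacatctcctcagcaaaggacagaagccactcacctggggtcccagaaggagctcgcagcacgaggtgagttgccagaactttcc
Socs3: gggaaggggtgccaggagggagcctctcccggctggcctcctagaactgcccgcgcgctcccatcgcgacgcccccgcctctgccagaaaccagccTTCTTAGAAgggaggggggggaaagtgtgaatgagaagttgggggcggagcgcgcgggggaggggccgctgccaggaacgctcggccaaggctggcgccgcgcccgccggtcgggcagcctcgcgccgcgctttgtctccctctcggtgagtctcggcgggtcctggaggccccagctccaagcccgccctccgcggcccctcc
Cxcl2: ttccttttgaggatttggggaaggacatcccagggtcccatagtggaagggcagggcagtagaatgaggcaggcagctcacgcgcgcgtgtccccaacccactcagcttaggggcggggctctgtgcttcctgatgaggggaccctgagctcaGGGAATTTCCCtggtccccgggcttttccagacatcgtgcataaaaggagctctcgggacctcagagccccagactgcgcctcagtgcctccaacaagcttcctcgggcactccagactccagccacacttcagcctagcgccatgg
Bcl3: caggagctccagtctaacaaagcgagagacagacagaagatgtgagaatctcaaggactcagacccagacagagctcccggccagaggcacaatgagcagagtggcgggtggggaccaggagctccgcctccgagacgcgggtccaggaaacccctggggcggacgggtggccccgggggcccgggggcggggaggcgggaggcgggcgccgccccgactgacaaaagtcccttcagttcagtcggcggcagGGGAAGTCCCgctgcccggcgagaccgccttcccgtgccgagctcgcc
Tgfbi: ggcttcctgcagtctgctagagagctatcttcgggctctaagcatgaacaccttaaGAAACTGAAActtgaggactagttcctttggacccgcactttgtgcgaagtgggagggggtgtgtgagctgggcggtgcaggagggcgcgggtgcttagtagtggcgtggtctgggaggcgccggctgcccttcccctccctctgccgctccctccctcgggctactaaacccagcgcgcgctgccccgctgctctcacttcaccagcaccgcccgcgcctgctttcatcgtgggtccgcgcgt

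The motifs searched were the NF-kB consensus, the STAT site TTCNNNGAA, an interferon-stimulated response element (ISRE) core of GAAA, any 2 bases and GAAA, the C/EBP site TTGCNNAA, the AP-1 site TGANTCA and the E2F site GGCGGGAA. Cxcl2 held an NF-kB match at base -97 from the start, which overlaps a match on the other strand at -96, and Bcl3 held one at base 3. Socs3 held a STAT match at -154, in a window whose start lies 682 bases from the deposited gene start. Saa3 held an ISRE core at -125 and a C/EBP match at -99, and Tgfbi an ISRE core at -194. Over all 32851 promoters of the table, 4.51% hold the NF-kB motif, 8.3% the STAT site, 3.44% the ISRE core, 10.8% the C/EBP site, 7.81% the AP-1 site and 2.19% the E2F site. A match is a run of letters and not evidence that a factor binds there.

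**Figure D2:**
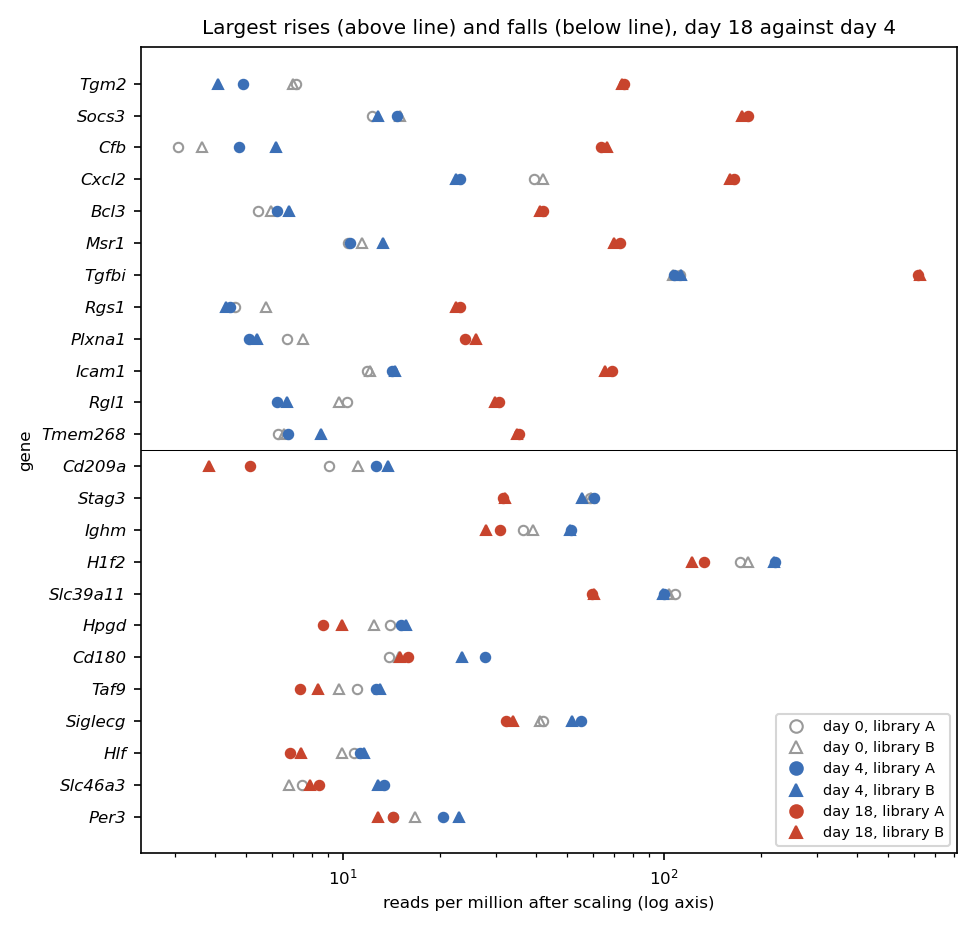
Level of the 12 largest rises (above the line) and 12 largest falls (below it) in each library, in RPM on a log axis, with circles for library A and triangles for library B. Each pair of day 18 points (red) stands clear of the day 4 pair (blue), and the gaps are wider for the rises than for the falls.

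Genes of the interleukin 6 and acute phase route rose in part. Of 19 tested genes 12 rose and 3 fell (1 with 1 spread) (median log2 fold change 0.27, against 14.0% higher and 12.1% lower over all genes). Saa3 and Il6 passed the filter through the day 18 libraries alone, and of the other 17 genes 10 rose (median 0.21). Beside Socs3 and Saa3, Pim1, a kinase induced by STAT factors, stood at 71.8 and 77.7 RPM at day 4 and 179.8 and 184 RPM at day 18 (log2 fold change 1.28, SE 0.048, adjusted p = 1.06e-17). Junb, an AP-1 subunit also induced by this route, stood at 326 and 307 RPM against 505 and 508 RPM (log2 fold change 0.68, SE 0.03, adjusted p = 3.36e-16). Both genes were higher in each day 18 library, and their day 0 libraries lay close to or above the day 4 level. Il4ra, a cytokine receptor chain, rose by 1.30 on the log2 scale, Il6st, the shared signalling receptor gp130, by 0.99, and Cebpb, a C/EBP factor, by 0.62. Hp, the haemoglobin-binding acute phase protein haptoglobin, was not called (log2 fold change -0.018, SE 0.018, adjusted p = 0.529), with 1362 and 1395 RPM against 1363 and 1359 RPM. The 3 genes that fell were Chil3, a chitinase-like protein, Cebpd, another C/EBP factor, and Lcn2, an iron-binding granule protein, with log2 fold changes of -0.40, -0.25 and -0.11. Without the 20 most abundant genes in the test, the count of falls was 1.

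NF-kB genes rose together. Of 20 tested subunits and regulators 16 rose and 0 fell, with a median log2 fold change of 0.51. Tnfaip3, the deubiquitinase A20 that ends NF-kB signals, stood at 60.7 and 61.5 RPM at day 4 and 214 and 207 RPM at day 18 (log2 fold change 1.78, SE 0.051, adjusted p = 2.83e-20). Nfkbia, the inhibitor IkB-alpha, stood at 159.5 and 163 RPM against 345 and 345 RPM (log2 fold change 1.10, SE 0.034, adjusted p = 1.94e-19). Nfkbiz, a nuclear IkB protein, stood at 116 and 111 RPM against 262 and 262 RPM (log2 fold change 1.20, SE 0.043, adjusted p = 3.96e-18). All 3 genes were at least 2-fold higher in both day 18 libraries than in both day 4 libraries. Bcl3, another nuclear IkB protein, whose promoter is printed above, rose 6.37-fold from 6.23 and 6.81 RPM to 42.05 and 41.04 RPM. Among the subunits, log2 fold changes were 1.80 for Relb and 1.35 for Nfkb2, which form the non-canonical dimer, 0.48 for Rel, and 0.19 for Nfkb1 and 0.19 for Rela, which form the canonical dimer. The 4 genes not called were the kinase subunits Chuk, Ikbkb and Ikbkg and the deubiquitinase Cyld, with log2 fold changes from -0.085 to 0.064.

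Cytokines and mediators rose, with Tnf as an exception. Of 23 tested genes 16 rose and 1 fell, with a median log2 fold change of 0.90. Arg1, Nos2 and Tnfsf9 passed the filter through the day 18 libraries alone, and of the other 20 genes 13 rose (median 0.65). Il1b, the inflammatory cytokine interleukin 1 beta, stood at 63.2 and 63.1 RPM at day 4 and 189.8 and 187 RPM at day 18 (log2 fold change 1.58, SE 0.049, adjusted p = 1.73e-19). Tnf, tumour necrosis factor, stood at 72.9 and 75.4 RPM against 78.2 and 74.4 RPM and was not called (log2 fold change 0.041, SE 0.056, adjusted p = 0.663). The Tnf libraries of the 2 days overlapped, and those of Il1b did not. Ccrl2, a chemerin-binding receptor, rose 3.38-fold, from 38.6 and 36.9 RPM to 125 and 130.0 RPM. Clec4e, the lectin Mincle that senses damaged cells and mycobacteria, rose 4.01-fold, from 25.3 and 24.4 RPM to 101 and 98.1 RPM. Il1rn, the antagonist of interleukin 1 receptors, rose by 1.32 on the log2 scale, Il1a by 2.47, and Ptgs2, the inducible prostaglandin synthase, by 0.73. Hdc, which makes histamine, fell from 214 and 213 RPM to 169 and 163 RPM (log2 fold change -0.36, SE 0.037, adjusted p = 1.11e-08). It is also a basophil gene, and 5 other basophil genes fell too.

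Arg1 and Nos2, the enzymes that mark opposed arginine use in macrophages, had few reads at day 4 and passed the filter through the day 18 libraries alone, so their reads are given with no test. Arg1 had 3 and 0 reads in the day 4 libraries and 52 and 62 at day 18, a ratio of 36.8 with a 95% counting interval of 12.3 to 181. Nos2 had 3 and 0 reads against 34 and 23, a ratio of 18.4 with an interval of 5.98 to 91.8. Arg2, the mitochondrial arginase, rose by 1.39 on the log2 scale. Mrc1, the mannose receptor used as a marker of alternative activation, was not called, with 41.98 and 39.3 RPM at day 4 and 39.2 and 40.99 RPM at day 18 (log2 fold change -0.019, SE 0.07, adjusted p = 0.893).

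Chemokine genes rose, several of them from few or no reads. Of 20 tested genes 17 rose and 0 fell, with a median log2 fold change of 2.28. Of these, 7 passed the filter through the day 18 libraries alone (Ccl7, Ccl8, Ccl12, Cxcl3, Cxcl9, Cxcl11 and Cxcl13). Among the other 13 genes 11 rose (median 1.98). Cxcl2, a neutrophil attractant whose promoter is printed above, stood at 23.1 and 22.5 RPM at day 4 and 165 and 161 RPM at day 18 (log2 fold change 2.83, SE 0.064, adjusted p = 3.3e-22). Cxcl16, a membrane-bound chemokine that also binds oxidised lipids, stood at 3.41 and 2.74 RPM against 41.8 and 40.8 RPM (log2 fold change 3.71, SE 0.20, adjusted p = 2.9e-13). Ccl6 stood at 175 and 176 RPM against 261 and 256 RPM (log2 fold change 0.56, SE 0.037, adjusted p = 1.9e-12). For each of the 3 both day 18 libraries were higher, with the widest gap for Cxcl16, which carries fractional reads. Among attractants of monocytes, Ccl2 rose by 2.09, Ccl3 by 1.10 and Ccl4 by 1.98 on the log2 scale. Ccl7, Ccl8 and Ccl12 had no read in either day 4 library and 33, 99 and 88 reads over both day 18 libraries, which is at least 10.6-fold, 31.9-fold and 28.4-fold higher against a floor of 3 counts over the group. Cxcl13, the attractant of B cells, had 3 reads over the day 4 libraries and 143 at day 18, a ratio of 46.1 with a 95% counting interval of 15.5 to 226. The B cell attractant Cxcl12, the megakaryocyte chemokine Pf4 and Cxcl3 were not called.

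Sensors of microbes and danger rose. Of 24 tested genes 18 rose (11 with 1 spread) and 1 fell (0 with 1 spread or on the RPKM scale), with a median log2 fold change of 0.46. Cd14, the co-receptor for lipopolysaccharide, stood at 45.8 and 46.9 RPM at day 4 and 131 and 130.0 RPM at day 18 (log2 fold change 1.49, SE 0.059, adjusted p = 2.77e-17). Tlr2, the receptor for bacterial lipoproteins, stood at 36.7 and 39.3 RPM against 91.9 and 87.4 RPM (log2 fold change 1.24, SE 0.065, adjusted p = 1.66e-14). Nlrp3, the sensor of the inflammasome that matures interleukin 1 beta, stood at 28.5 and 26.1 RPM against 66.2 and 67.2 RPM (log2 fold change 1.29, SE 0.075, adjusted p = 1.49e-13). Both day 18 libraries were at least 2-fold above both day 4 libraries in all 3 genes. Tlr1, the partner of Tlr2, rose by 2.03 on the log2 scale and Tlr13, a sensor of bacterial RNA, by 0.99. Tlr4, the lipopolysaccharide receptor itself, was not called (log2 fold change 0.061), and Clec7a, the beta-glucan receptor Dectin-1, fell by 0.20.

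Interferon genes rose by modest amounts. Of 41 tested genes of the type I response 27 rose (14 with 1 spread) and 4 fell, with a median log2 fold change of 0.38, and the count of falls was 2 without day 4 B or day 18 A, 1 without day 18 B, 2 with library totals in place of scaling factors or on the RPKM scale and 0 with 1 spread. Slfn5, a Schlafen protein, stood at 71.4 and 70.4 RPM at day 4 and 107 and 107 RPM at day 18 (log2 fold change 0.59, SE 0.055, adjusted p = 1.82e-09). Trim30a, a regulator of Toll-like receptor signals, stood at 41.7 and 37.1 RPM against 65.4 and 63.4 RPM (log2 fold change 0.71, SE 0.073, adjusted p = 1.47e-08). Parp14, an ADP-ribosyltransferase, stood at 55.3 and 57.7 RPM against 83.03 and 78.5 RPM (log2 fold change 0.52, SE 0.06, adjusted p = 1.16e-07). Each of the 3 was higher in both day 18 libraries, by less than 2-fold, and Slfn5 and Trim30a carry fractional reads. Isg15, a ubiquitin-like protein, rose by 1.27 and Ifit1, which binds viral RNA, by 1.26 on the log2 scale, while the related Ifit2 fell by 0.20 and Ifit3 was not called (-0.16). Of 22 tested genes of the interferon gamma response 13 rose (7 with 1 spread) and 0 fell, with a median log2 fold change of 0.56. Cxcl9 and Iigp1 passed the filter through the day 18 libraries alone, and of the other 20 genes 12 rose (median 0.46). Cxcl10, an attractant of activated T cells, stood at 6.64 and 5.68 RPM against 17.9 and 17.6 RPM (log2 fold change 1.51, SE 0.16, adjusted p = 1.78e-08). Socs1, the inhibitor of interferon gamma signalling, was not called (log2 fold change -0.045).

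MHC class II genes, which present peptides to CD4 T cells, rose, the main chains by more than 2-fold. Of 15 tested genes 10 rose and 0 fell, with a median log2 fold change of 1.31. Cd74, the invariant chain, stood at 366 and 353 RPM at day 4 and 902 and 883 RPM at day 18 (log2 fold change 1.31, SE 0.026, adjusted p = 1.51e-23). H2-Ab1, a class II beta chain, stood at 137 and 140.5 RPM against 393 and 391 RPM (log2 fold change 1.5, SE 0.037, adjusted p = 1.77e-21). H2-Eb1, the beta chain of the other class II pair, stood at 103 and 100.4 RPM against 329 and 319 RPM (log2 fold change 1.67, SE 0.039, adjusted p = 7.51e-22). All 3 were over 2-fold higher in both day 18 libraries, and their day 4 libraries lay close to day 0 (385 and 381, 149 and 141 and 114 and 112 RPM). Ciita, the master activator of class II transcription, rose 3.66-fold from 14.1 and 14.7 RPM to 51.9 and 53.7 RPM (log2 fold change 1.87, SE 0.096, adjusted p = 1.25e-14). The 5 genes not called were H2-DMb2, H2-Ob and the promoter-binding subunits Rfx5, Rfxap and Rfxank, with log2 fold changes from -0.22 to 0.24.

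MHC class I genes rose less. Of 21 tested genes 13 rose (4 with 1 spread) and 0 fell, with a median log2 fold change of 0.17. The classical heavy chain H2-K1 stood at 158 and 171 RPM at day 4 and 225 and 226 RPM at day 18 (log2 fold change 0.46, SE 0.04, adjusted p = 5.86e-10). Log2 fold changes were 0.21 for the other classical chain H2-D1 and 0.26 for the light chain B2m, neither called with 1 spread, and larger for the non-classical chains H2-Q7 (2.18) and H2-M3 (1.5) and for Nlrc5 (1.24), the class I activator. The near-identical class I genes share reads: 6 of the list's 21 genes had whole reads in each library, and 5 of these rose.

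Co-stimulatory and checkpoint ligands rose in part, 9 of 20 tested with 1 lower (0 with 1 spread or on the RPKM scale) and a median log2 fold change of 0.95. Tnfsf4, Tnfsf9 and Vsig4 passed the filter through the day 18 libraries alone, and of the other 17 genes 7 rose (median 0.40). Cd274, the ligand PD-L1 that restrains T cells, stood at 9.82 and 9.34 RPM at day 4 and 29.1 and 27.6 RPM at day 18 (log2 fold change 1.55, SE 0.13, adjusted p = 5.15e-10). Cd40, which receives help from T cells, stood at 2.46 and 2.79 RPM against 15.3 and 13.7 RPM (log2 fold change 2.42, SE 0.22, adjusted p = 1.99e-09). Havcr2, the inhibitory receptor Tim-3, stood at 1.09 and 1.76 RPM against 11.8 and 8.75 RPM (log2 fold change 2.79, SE 0.29, adjusted p = 1.89e-08). Each was several-fold higher in both day 18 libraries, and Cd274 was also higher at day 4 than at day 0 (4.79 and 5.13 RPM). Cd86 rose by 0.74 on the log2 scale, its relative Cd80 was not called (0.40), and neither was Cd47, the ligand of Sirpa (-0.03). Tnfsf13b, the B cell survival factor BAFF, fell by 0.24.

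**Figure D3:**
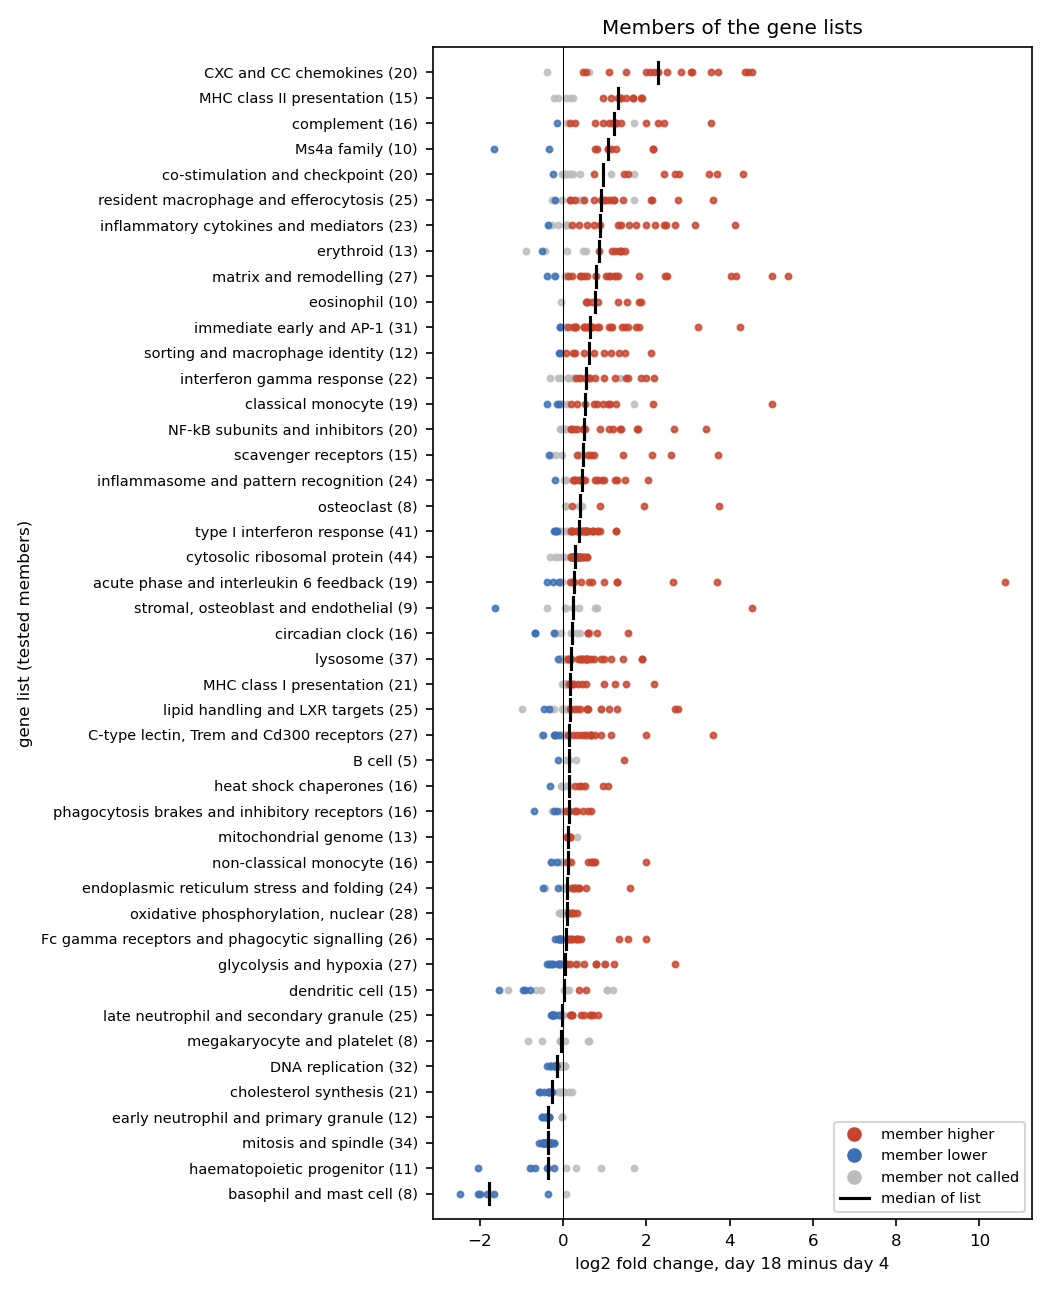
Log2 fold change of day 18 against day 4 for each tested member of each gene list with at least 5 tested genes (1 dot per gene, red higher, blue lower, grey not called), with the median as a black bar and the number tested in parentheses. The mitosis list is blue throughout, and NF-kB genes hold no blue dot. Members that passed the filter through the day 18 libraries alone, such as 7 of the 20 chemokines, are included.

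Fc receptors, which bind antibody-coated targets, and the signalling that drives uptake rose in part. Of 26 tested genes 13 rose (7 with 1 spread) and 7 fell, with a median log2 fold change of 0.077, and the count of falls was 4 with library totals in place of scaling factors, 2 on the RPKM scale and 0 with 1 spread. Fcgr1, the high-affinity IgG receptor, stood at 13.5 and 13.6 RPM at day 4 and 33.3 and 35.2 RPM at day 18 (log2 fold change 1.33, SE 0.13, adjusted p = 5.84e-09). The other receptors rose less: log2 fold changes were 0.44 for Fcgr4, 0.36 for the inhibitory Fcgr2b and 0.15 for Fcgr3 (adjusted p = 1.59e-05, 2.46e-08 and 0.00137). Fcgr2b and Fcgr3 carry fractional reads, and Fcgr3 was not called with 1 spread. Itgax, the integrin CD11c that binds complement-coated targets, stood at 15.8 and 13.3 RPM against 57.7 and 59.01 RPM (log2 fold change 2.0, SE 0.099, adjusted p = 4.71e-15). The Src family kinases that start the Fc receptor signal rose, Lyn by 0.34 and Fgr by 0.30 on the log2 scale. The 7 falls were small, and none was called with 1 spread. They were of the superoxide-making oxidase subunits Cybb (-0.092), Ncf1 (-0.13) and Ncf4 (-0.078) and their activator Rac2 (-0.19), of Itgam (-0.082), its partner Itgb2 (-0.056) and of the phospholipase Plcg2 (-0.10).

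Inhibitory receptors, which limit phagocytosis and activation, rose in 8 (5 with 1 spread or on the RPKM scale) and fell in 3 (1 with 1 spread) of 16 tested (median log2 fold change 0.13). Sirpa, the receptor for CD47, stood at 726 and 734 RPM at day 4 and 903 and 877 RPM at day 18 (log2 fold change 0.29, SE 0.023, adjusted p = 8.75e-11). Pirb, which binds MHC class I, stood at 293 and 287 RPM against 439 and 439.6 RPM (log2 fold change 0.60, SE 0.029, adjusted p = 3.19e-15). The relatives Lilr4b and Lilrb4a rose by 0.66 and 0.49 on the log2 scale. All 8 that rose carry fractional reads in at least 1 library, as is common among these near-identical genes, and none of the 6 members with whole reads rose. Siglecg, which binds sialic acid on target cells, fell from 55.2 and 51.7 RPM to 32.2 and 33.9 RPM (log2 fold change -0.69, SE 0.072, adjusted p = 1.62e-08), with both day 18 libraries below the day 0 libraries (42.01 and 41.2 RPM) as well.

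Complement genes rose. Of 16 tested genes 13 rose and 1 fell (0 with 1 spread), with a median log2 fold change of 1.21. C1s1 and Vsig4 passed the filter through the day 18 libraries alone, and of the other 14 genes 12 rose (median 1.13). Cfb, factor B of the alternative pathway, stood at 4.74 and 6.19 RPM at day 4 and 63.5 and 66.6 RPM at day 18 (log2 fold change 3.56, SE 0.15, adjusted p = 1.24e-16). Cfp, properdin, which stabilises the alternative convertase, stood at 87.96 and 87.5 RPM against 150.4 and 149 RPM (log2 fold change 0.77, SE 0.046, adjusted p = 3.08e-13). The 3 chains of C1q, which opens the classical pathway, rose by 1.26 (C1qa), 1.09 (C1qb) and 1.26 (C1qc) on the log2 scale. C3, the central component, was the fall (-0.14).

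Genes of resident macrophages rose, with some defining ones not called. Of 25 tested genes 17 rose and 1 fell (0 with 1 spread, 2 without day 4 B or without day 18 A), with a median log2 fold change of 0.91. Vsig4 passed the filter through the day 18 libraries alone, and the median of the other 24 genes was 0.83. Csf1r, the receptor on which macrophages depend, stood at 211 and 208 RPM at day 4 and 402 and 421 RPM at day 18 (log2 fold change 0.97, SE 0.035, adjusted p = 3.96e-18). Nr1h3, the oxysterol receptor LXR-alpha, stood at 2.73 and 3.62 RPM against 24.1 and 19.96 RPM (log2 fold change 2.76, SE 0.19, adjusted p = 3.9e-12). Both day 18 libraries were clearly higher in both genes, and for Csf1r day 4 was already above day 0 (156 and 163 RPM). Cd68, a lysosomal macrophage protein, rose by 0.74 on the log2 scale and Cd5l, a secreted scavenger protein of tissue macrophages, by 1.43. Mertk, a receptor for dying cells, rose by 1.14, and Spic, a factor of iron-recycling macrophages, by 1.23. Marco, Timd4, Lyve1, Cd163, Siglec1 and Vsig4, which mark resident cells of several tissues, were not called, and Slc40a1, the iron exporter ferroportin, fell by 0.19.

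Genes of classical monocytes rose in 11 and fell in 3 (1 with 1 spread) of 19 tested (median log2 fold change 0.53). Ly6a passed the filter through the day 18 libraries alone, and the median of the other 18 genes was 0.43. Fn1, fibronectin, stood at 439.5 and 413 RPM at day 4 and 936 and 926 RPM at day 18 (log2 fold change 1.13, SE 0.029, adjusted p = 1.6e-20). Ccr2, the receptor that brings monocytes out of marrow, rose by 0.74 on the log2 scale, while Ly6c2, the surface marker of these cells, was not called (-0.044) and Lyz2, lysozyme, fell by 0.11. The summed level of the list, in which Lyz2 and Chil3 weigh most, was 22129 and 22451 RPM at day 4 and 21648 and 21689 RPM at day 18. Of non-classical monocyte genes 8 rose (5 with 1 spread) and 2 fell (1 with 1 spread) of 16 tested (median 0.11). Nr4a1, the nuclear receptor that these cells need, stood at 111 and 108 RPM against 171 and 161 RPM (log2 fold change 0.60, SE 0.046, adjusted p = 5.77e-11), and Ear2, a ribonuclease, at 74.5 and 79.4 RPM against 124 and 126 RPM (log2 fold change 0.70, SE 0.048, adjusted p = 6.93e-12). Both are shared with other lists here, Nr4a1 with immediate early genes and Ear2 with eosinophil genes.

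The Ms4a genes, which encode membrane proteins of myeloid and B cells, rose for the most part. Of 10 tested 8 rose (5 with 1 spread or on the RPKM scale) and 2 fell (0 with 1 spread, 1 on the RPKM scale), with a median log2 fold change of 1.07. Ms4a6d stood at 23.3 and 24.8 RPM at day 4 and 109 and 105 RPM at day 18 (log2 fold change 2.15, SE 0.08, adjusted p = 8.66e-18), Ms4a4a at 8.37 and 8.52 RPM against 39.4 and 36.9 RPM (log2 fold change 2.16, SE 0.13, adjusted p = 6.83e-13) and Ms4a6c at 70.4 and 72.96 RPM against 174 and 173 RPM (log2 fold change 1.27, SE 0.05, adjusted p = 2.27e-17). All 3 were also higher at day 4 than at day 0 (13.3 and 13.8, 4.22 and 3.93 and 56.4 and 56.8 RPM). The 2 that fell were Ms4a2, a chain of the IgE receptor on basophils (-1.67), and Ms4a3, a gene of granulocyte and monocyte precursors (-0.33).

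Among C-type lectins and Trem and Cd300 receptors 14 rose (9 with 1 spread) and 5 fell (1 with 1 spread, 3 on the RPKM scale) of 27 tested (median log2 fold change 0.15). Clec4n, the fungal receptor Dectin-2, stood at 2.55 and 2.01 RPM at day 4 and 29.5 and 28.02 RPM at day 18 (log2 fold change 3.61, SE 0.25, adjusted p = 5.79e-10). Trem1, which amplifies inflammatory signals and is also a neutrophil gene, stood at 102 and 93.1 RPM against 153 and 156 RPM (log2 fold change 0.67, SE 0.047, adjusted p = 1.06e-11). Clec4d, the partner of Clec4e, rose by 1.15 on the log2 scale and Trem2, a lipid sensor, by 0.91. Mgl2, a galactose-binding lectin, and Clec12a, a receptor for uric acid crystals, fell with log2 fold changes of -0.48 and -0.23.

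Lysosomal genes rose. Of 37 tested 21 rose and 1 fell (0 with 1 spread, on the RPKM scale or without day 18 B), with a median log2 fold change of 0.20. Ctsc, the protease that activates granule serine proteases, stood at 77.8 and 78.8 RPM at day 4 and 291 and 289.6 RPM at day 18 (log2 fold change 1.89, SE 0.051, adjusted p = 1.6e-20). Ctss, the protease that trims the invariant chain, stood at 151 and 152 RPM against 333 and 343 RPM (log2 fold change 1.16, SE 0.04, adjusted p = 1.43e-18), and Psap, which yields activators of lipid breakdown, at 1391 and 1409.8 RPM against 2037 and 1984 RPM (log2 fold change 0.52, SE 0.018, adjusted p = 2.01e-18). Both day 18 libraries were higher in the 3 genes, and day 4 was above day 0 in each (64.1 and 56.6, 106 and 98.7 and 1232 and 1259 RPM). Lgmn and Ctsl, other endosomal proteases, rose by 1.89 and 1.44 on the log2 scale, and Tfeb, the factor that governs lysosome genes, was not called (0.086).

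Lipid genes went 2 ways. Of 25 tested genes of lipid handling 12 rose and 2 fell (1 with 1 spread, on the RPKM scale, without day 4 B or without day 18 A), with a median log2 fold change of 0.16. Pltp, a phospholipid transfer protein, stood at 53.2 and 51.03 RPM at day 4 and 128 and 128 RPM at day 18 (log2 fold change 1.29, SE 0.058, adjusted p = 5.63e-16), and Apoe, an apolipoprotein, at 536 and 535 RPM against 667 and 687 RPM (log2 fold change 0.34, SE 0.025, adjusted p = 3.04e-11). Abca1, the cholesterol exporter, rose by 1.11 on the log2 scale, while Abcg1 was not called (0.15). Lpl, lipoprotein lipase, fell by 0.45. In contrast, no gene of cholesterol synthesis and uptake rose and 9 of 21 fell (3 with 1 spread, 4 on the RPKM scale; median -0.28). Fdft1, squalene synthase, stood at 32.2 and 33.5 RPM against 21.5 and 22.6 RPM (log2 fold change -0.58, SE 0.091, adjusted p = 1.46e-05), with both day 18 libraries below both day 4 libraries, by less than 2-fold. Of 15 scavenger receptors 8 rose and 1 fell (median 0.48), with Msr1 and Cxcl16 given above and the hyaluronan and lipoprotein receptor Stab1 at 2.13 on the log2 scale.

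Matrix and remodelling genes held some of the widest changes. Of 27 tested 20 rose and 2 fell (1 with 1 spread), with a median log2 fold change of 0.79. Mmp14, a membrane-bound collagenase chosen after its values were seen, stood at 1.36 and 1.37 RPM at day 4 and 62.2 and 62.3 RPM at day 18, 45.5-fold higher (log2 fold change 5.41, SE 0.18, adjusted p = 6.25e-19). Vcan, the proteoglycan versican of monocytes, likewise stood at 1.55 and 0.979 RPM against 42.8 and 43.2 RPM, 34.1-fold higher (log2 fold change 5.02, SE 0.24, adjusted p = 1.46e-15). Both were low at day 0 as well (2.58 and 2.87 RPM for Mmp14, 1.95 and 1.34 RPM for Vcan) and far above that in both day 18 libraries. Timp1, an inhibitor of such proteases that passed the filter through the day 18 libraries alone, had no read at day 4 and 73 reads at day 18, at least 23.5-fold higher against 3 counts over the group. Mmp19 rose by 1.82, Lgals1, a galactose-binding lectin, by 1.10 and Tgfb1 by 0.12 on the log2 scale. Vegfa, the vascular growth factor, fell from 103 and 105 RPM to 79.6 and 80.6 RPM (log2 fold change -0.38, SE 0.048, adjusted p = 5.13e-07), and Plau, urokinase, fell by 0.20.

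Immediate early genes, which respond within minutes to signals, rose nearly throughout. Of 31 tested 26 rose and 2 fell, with a median log2 fold change of 0.65, and none fell with 1 spread, on the RPKM scale, with library totals in place of scaling factors or without day 4 B, day 18 A or day 18 B (1 without day 4 A). Fosb stood at 183 and 179 RPM at day 4 and 406 and 404 RPM at day 18 (log2 fold change 1.16, SE 0.033, adjusted p = 2.49e-20), and Fos at 427 and 413 RPM against 685 and 680.0 RPM (log2 fold change 0.70, SE 0.025, adjusted p = 4.74e-18), both AP-1 subunits. Dusp1, a phosphatase that ends MAP kinase signals, stood at 254 and 249.7 RPM against 455 and 454 RPM (log2 fold change 0.85, SE 0.03, adjusted p = 2.01e-18). In all 3 genes day 4 lay within 0.1 of day 0 on the log2 scale (differences of -0.052, -0.025 and -0.02) and both day 18 libraries were higher. Ier2 and Rhob fell by less than 0.1 on the log2 scale (-0.075 and -0.081). Immediate early genes are also a sign of how tissue was handled. They were higher at day 18 beside the NF-kB and cytokine genes above, and their part in those results was not tested.

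Heat shock chaperones rose in 6 and fell in 1 of 16 tested (median 0.14). Among the members with the smallest p, the constitutive chaperone Hspa8 stood at 204 and 191 RPM at day 4 and 296 and 274 RPM at day 18 (log2 fold change 0.53, SE 0.039, adjusted p = 4.43e-11), and the log2 fold change of Hsp90ab1 was 0.28. Clock genes rose in 4 and fell in 3 of 16. Per1, a repressor of the clock that is also induced by glucocorticoid and stress, stood at 21.7 and 21.8 RPM against 67.7 and 61.9 RPM (log2 fold change 1.57, SE 0.081, adjusted p = 1.33e-14), while Per3 fell from 20.5 and 23.01 RPM to 14.3 and 12.9 RPM (log2 fold change -0.67, SE 0.12, adjusted p = 5.83e-05). The repressors Bhlhe40 and Nfil3 rose by 0.81 and 0.59 on the log2 scale, and the rhythmic outputs Dbp, Nr1d1 and Tef were not called. The labels give no hour of collection.

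Genes of hypoxia and glycolysis moved both ways, with 9 higher (4 with 1 spread) and 8 lower (4 with 1 spread, 5 on the RPKM scale) of 27 tested (median 0.034). Hif1a, the oxygen-regulated subunit of hypoxia-inducible factor, stood at 66.7 and 70.1 RPM at day 4 and 157 and 161 RPM at day 18 (log2 fold change 1.22, SE 0.049, adjusted p = 5.41e-17). Slc2a1, a glucose transporter, stood at 15.4 and 16.3 RPM against 34.2 and 29.3 RPM (log2 fold change 0.99, SE 0.11, adjusted p = 3.08e-08), and Pfkl, a phosphofructokinase, rose by 0.51 on the log2 scale. The hexokinases Hk1, Hk2 and Hk3 fell with log2 fold changes of -0.24, -0.33 and -0.27. Of 24 genes of protein folding in the endoplasmic reticulum 8 rose and 2 fell (3 and 0 with 1 spread, 5 and 1 without day 18 A). The members with the smallest p were the chaperone Hspa5 (log2 fold change 0.39, SE 0.03, adjusted p = 7.67e-11), Herpud1 (log2 fold change 0.55, SE 0.06, adjusted p = 4.07e-08) and the stress factor Atf4 (log2 fold change 0.25, SE 0.035, adjusted p = 2.74e-06), and Atf4 was not called with 1 spread.

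Many cytosolic ribosomal protein genes rose slightly, and the share for nuclear genes of respiration was near that of all genes. Of 44 cytosolic ribosomal protein genes 30 rose (8 with 1 spread) and 0 fell (median 0.29). Those with the smallest p were Rps9, Rplp0 and Rpl4 (log2 fold changes of 0.38, 0.38 and 0.25), and Rpl4 was not called with 1 spread. All of the ribosomal genes carry fractional reads, so their levels are uncertain. Of 28 nuclear genes of oxidative phosphorylation 5 rose, or 17.9% against 14.0% of all genes, and 0 fell. The count of rises was 8 with library totals in place of scaling factors, 1 on the RPKM scale and 0 with 1 spread. Cox4i1 and Uqcrfs1, with log2 fold changes of 0.24 and 0.33, were among them. Of 13 genes of the mitochondrial genome 8 rose (61.5%), but 4 did without day 18 B, 3 on the RPKM scale and 0 with 1 spread. Log2 fold changes were 0.12 for mt-Co1, 0.16 for mt-Co3 and 0.14 for mt-Atp6.

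Cell division genes fell. All 34 of 34 tested genes of mitosis fell, with a median log2 fold change of -0.37, against 12.1% lower over all genes. Mki67, a marker of cycling cells, stood at 1082 and 1065 RPM at day 4 and 809.9 and 810.3 RPM at day 18 (log2 fold change -0.41, SE 0.019, adjusted p = 2.32e-15). Top2a, which untangles DNA, stood at 736 and 710.2 RPM against 579 and 557 RPM (log2 fold change -0.35, SE 0.024, adjusted p = 7.36e-12), and Cdc20, which starts anaphase, at 213 and 208 RPM against 148 and 149.9 RPM (log2 fold change -0.5, SE 0.036, adjusted p = 2.18e-11). Both day 18 libraries were lower in all 3 genes, by less than 1.5-fold, and for Mki67 and Top2a day 4 was below day 0 (1247 and 1266 and 792 and 793 RPM). Of 32 genes of DNA replication 13 fell (2 with 1 spread, 8 on the RPKM scale) and 0 rose (median -0.15). Rrm2 and Rrm1, the subunits of ribonucleotide reductase, fell with log2 fold changes of -0.29 and -0.29 (Rrm1 not called with 1 spread), as did Chaf1a, a histone chaperone of replication (-0.38). The linker histone H1f2 was among the 12 largest falls, with 222 and 219.7 RPM at day 4 and 133 and 122 RPM at day 18 (log2 fold change -0.79, SE 0.042, adjusted p = 2.65e-14).

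**Figure D4:**
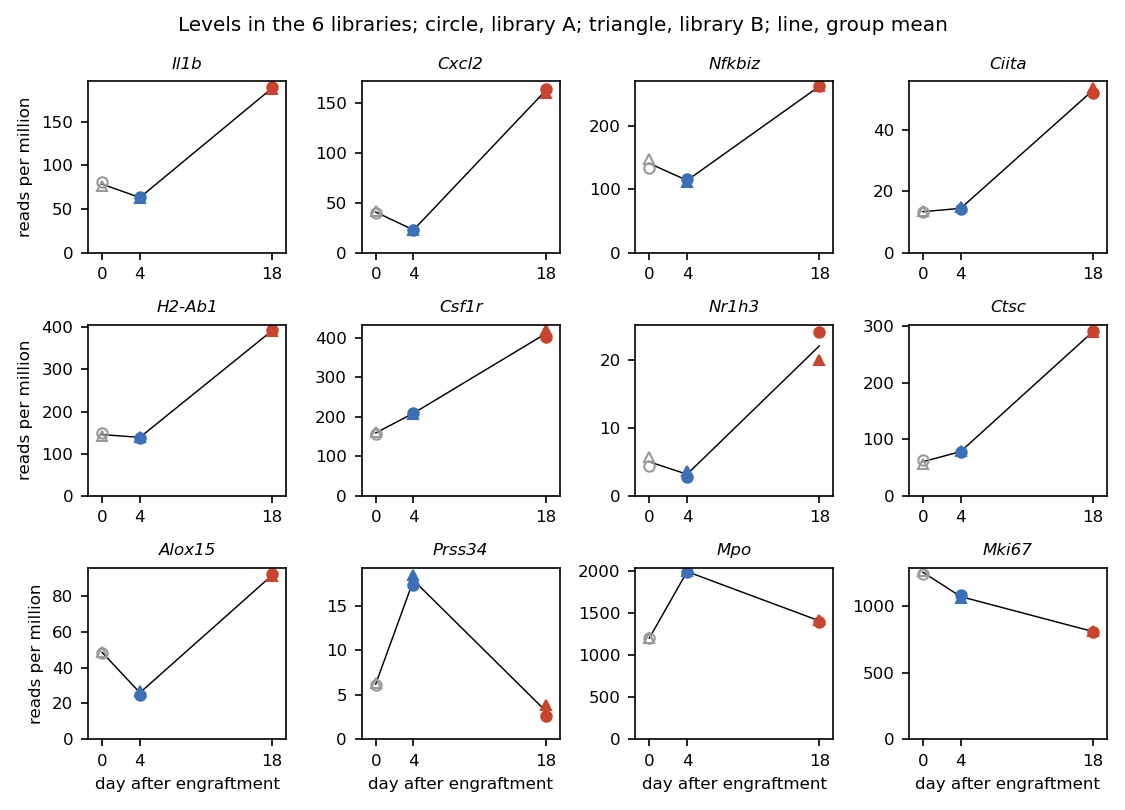
Level of 12 genes in each of the 6 libraries (RPM, linear axis) against the day after engraftment, with circles for library A, triangles for library B and a line through the group means. Il1b, Cxcl2 and Nfkbiz were lower at day 4 than at day 0 and highest at day 18, Csf1r and Ctsc rose at both steps, Prss34 and Mpo were highest at day 4, and Mki67 fell at both steps.

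The day 4 libraries were the shared reference for both steps, so the change from day 0 to day 4 and that from day 4 to day 18 are not independent, and only their values are given. Il1b stood at 80.95 and 75.97 RPM at day 0, 63.2 and 63.1 RPM at day 4 and 189.8 and 187 RPM at day 18. Cxcl2 stood at 39.3 and 41.98, 23.1 and 22.5 and 165 and 161 RPM in the same order, and Alox15, an eosinophil and macrophage lipoxygenase, at 48.4 and 48.8, 24.7 and 27.2 and 92.5 and 91.1 RPM. In these 3 genes day 4 was the lowest of the groups and day 18 the highest. Mpo, a granule enzyme of neutrophil precursors, stood at 1195 and 1199.8, 1984 and 1991 and 1393 and 1414 RPM, and Prss34, a basophil protease, at 6.08 and 6.33, 17.3 and 18.5 and 2.57 and 3.79 RPM. In both day 4 was the highest group.

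Genes of other marrow cells changed as well. Those of early neutrophils and their primary granules fell in 9 of 12 tested, and none rose (median -0.36). Mpo fell with a log2 fold change of -0.5 (SE 0.017, adjusted p = 1.32e-18), and the granule proteases Elane and Prtn3 fell with log2 fold changes of -0.39 and -0.45. The list summed to 5221 and 5249 RPM at day 4 and 4036 and 4042 RPM at day 18. Of 25 late neutrophil genes 10 rose (3 with 1 spread) and 8 fell (2 with 1 spread). Those that fell included the secondary granule genes Ngp (-0.26) and Ltf (-0.27), and those that rose included genes of the most mature cells, the collagenase Mmp8 (log2 fold change 0.42, SE 0.026, adjusted p = 6.83e-13), the gelatinase Mmp9 (log2 fold change 0.20, SE 0.02, adjusted p = 6.09e-09), which was not called with 1 spread, and Trem1, given above. When the 20 most abundant genes were left out, 3 late neutrophil genes were called lower.

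Eosinophil genes rose and basophil genes fell. Of 10 tested eosinophil genes 9 rose and 0 fell (median 0.77), and the list summed to 364 and 393 RPM at day 4 and 745 and 750.3 RPM at day 18. Alox15 stood at 24.7 and 27.2 RPM against 92.5 and 91.1 RPM (log2 fold change 1.82, SE 0.068, adjusted p = 8.51e-18). The eosinophil ribonucleases Ear1 and Ear6 rose by 1.86 and 1.54 on the log2 scale, Siglecf, the surface marker of these cells, rose by 0.54, and Epx, their peroxidase, was not called (-0.051). Of 8 basophil and mast cell genes 6 fell and 0 rose (median -1.78), and the list, in which Hdc weighs most, summed to 311 and 299.8 RPM against 229 and 228 RPM. Prss34 stood at 17.3 and 18.5 RPM against 2.57 and 3.79 RPM (log2 fold change -2.48, SE 0.18, adjusted p = 2.41e-11) and the related protease Mcpt8 at 10.96 and 10.2 RPM against 2.57 and 2.54 RPM (log2 fold change -2.01, SE 0.21, adjusted p = 1.59e-08). Both day 18 libraries were at most 4 RPM in both genes and below the day 0 libraries too (6.08 and 6.33 and 4.88 and 3.65 RPM).

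Erythroid genes rose in 7 and fell in 1 of 13 tested (median 0.87), and summed to 243 and 238 RPM at day 4 and 443 and 453 RPM at day 18. Hbb-bs, a beta globin, stood at 53.1 and 57.1 RPM against 153 and 154 RPM (log2 fold change 1.48, SE 0.053, adjusted p = 3.96e-18), with day 0 between (101 and 111 RPM), and the alpha globins Hba-a1 and Hba-a2 rose by 1.38 and 1.40 on the log2 scale. The globin copies carry fractional reads. The part of eosinophil, basophil, neutrophil and erythroid cells in the changes above was not tested.

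Progenitor genes fell in part, and dendritic cell genes moved both ways. Of 11 progenitor genes 5 fell (2 with 1 spread, 3 on the RPKM scale) and 0 rose (1 on the RPKM scale), with a median of -0.37. Myb, which progenitors need to divide, stood at 179 and 172 RPM at day 4 and 131 and 136 RPM at day 18 (log2 fold change -0.39, SE 0.041, adjusted p = 1.87e-08). The stem cell factors Hlf and Erg fell with log2 fold changes of -0.68 and -0.21 (Erg not called with 1 spread or on the RPKM scale). Of 15 dendritic cell genes 4 fell (26.7%) and 2 rose (13.3%), against 12.1% and 14.0% of all genes, with a median of 0.027. The filter was passed through the day 18 libraries alone by 3 of them and through the day 4 libraries alone by 2, none called. The other 10 had a median of -0.25. The count of falls was 2 without day 4 A, without day 18 A, with 1 spread or on the RPKM scale, and that of rises 0 with 1 spread, on the RPKM scale or without day 4 A and 1 without day 18 A or day 18 B. Cd209a, a lectin of monocyte-derived dendritic cells, stood at 12.6 and 13.8 RPM against 5.13 and 3.84 RPM (log2 fold change -1.55, SE 0.17, adjusted p = 3.56e-08), the largest of the 12 falls, and Irf4, a factor of their development, at 8.37 and 6.86 RPM against 3.97 and 3.92 RPM (log2 fold change -0.92, SE 0.20, adjusted p = 0.000668). Flt3, their growth factor receptor, fell by 0.79 (adjusted p = 0.0201), but had an adjusted p of 0.175 without day 4 A, 0.169 without day 18 A, 0.0659 with 1 spread and 0.0651 on the RPKM scale.

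Markers of the remaining cell types were low or mixed. Of 8 osteoclast genes 4 rose and 0 fell, and 2 rose with 1 spread or without day 18 B. Ocstamp passed the filter through the day 18 libraries alone, and of the other 7 genes 3 rose. Acp5, the acid phosphatase of osteoclasts and some macrophages, stood at 4.87 and 6.81 RPM at day 4 and 23.3 and 21.3 RPM at day 18 (log2 fold change 1.93, SE 0.15, adjusted p = 1.14e-10), whereas Ctsk, the osteoclast collagenase, was not called (0.45). Tnfrsf11a, the receptor RANK, rose by 0.88 (adjusted p = 0.00363), with an adjusted p of 0.119 without day 4 B, 0.0638 without day 18 B, 0.145 with 1 spread and 0.0978 on the RPKM scale. None of 8 megakaryocyte genes was called. Of 9 stromal and endothelial genes 1 rose (11.1%) and 1 fell (11.1%), near the 14.0% and 12.1% of all genes. The rise was the endothelial receptor Kdr (4.53), with 13 and 2 reads at day 4 and 183 and 186 at day 18. Angpt1 fell (-1.64) and passed the filter through the day 4 libraries alone. It was not called with 1 spread, on the RPKM scale or without day 4 A, day 4 B or day 18 A. Of 5 B cell genes tested 1 rose, the adaptor Blnk (1.46), and 1 fell, Cd37 (-0.12). Neither was called with 1 spread, nor was Cd37 on the RPKM scale, and both are found in myeloid cells too. The defining B cell gene Cd79a had 1 to 6 reads per library.

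**Figure D5:**
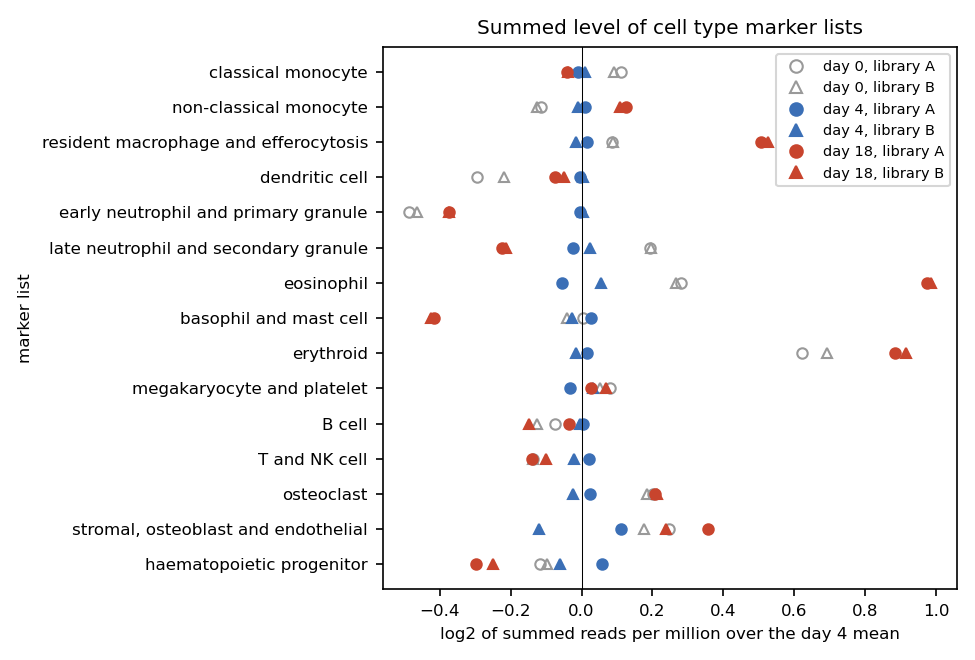
Summed level of each cell type marker list in each library, as log2 of its ratio to the day 4 mean (horizontal axis), with circles for library A and triangles for library B. At day 18 (red) eosinophil and erythroid lists lie highest, followed by resident macrophage genes, and basophil and early neutrophil lists lie lowest.

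The other falls among the 12 largest were of mixed roles. Stag3, a cohesin subunit of meiosis, stood at 60.4 and 55.4 RPM at day 4 and 31.4 and 31.9 RPM at day 18 (log2 fold change -0.87, SE 0.068, adjusted p = 8.31e-11). Ighm, the constant region of the immunoglobulin mu chain, which lymphoid progenitors transcribe before it is rearranged, stood at 51.1 and 50.97 RPM against 30.8 and 27.8 RPM (log2 fold change -0.80, SE 0.077, adjusted p = 4.25e-09). Cd180, a relative of Toll-like receptors, stood at 27.7 and 23.4 RPM against 15.99 and 15.1 RPM (log2 fold change -0.71, SE 0.11, adjusted p = 1.37e-05). In Stag3 the mean was 1.83-fold lower at day 18, in Ighm both day 18 libraries were below day 0 (36.3 and 39.02 RPM), and in Cd180 they were back near day 0 (13.9 and 14.9 RPM). Log2 fold changes were -0.72 for the zinc transporter Slc39a11, -0.72 for the prostaglandin-degrading enzyme Hpgd, -0.71 for the general transcription factor subunit Taf9 and -0.68 for the lysosomal transporter Slc46a3.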

How the data were processed

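Libraries were made from total RNA of sorted femur macrophages by standard Illumina methods, per the labels' protocols. The submitters' processing notes name STAR 2.5.3a and the build mm10. The counter, annotation and filter are steps not given in the sources used here. Deposited values are RPKM over the whole gene span, introns included, although they are called raw counts: multiplied by the span in kilobases, each library sums to 1000000, which gives RPM, and steps between low values give the reads. Of 17528 symbols, 17090 were found in GENCODE M21, 16923 with the same span. Between 77.5% and 78.9% of genes per library held whole reads (within 0.05).

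RPM were scaled by trimmed means of M values (0.970, 0.967, 1.01, 1.00, 1.03 and 1.03 for day 0 A and B, day 4 A and B and day 18 A and B). Genes with 0.453 RPM (10 reads) in 2 libraries and 15 reads in all were tested: 14304. Log2(RPM + 0.1) of all 6 libraries was fitted with limma 3.58.1 in R 4.3.3, letting the spread follow the level, with robust moderation (22.9 prior and 3 residual degrees of freedom). On this scale the fold change of a low gene is understated. A count test was not used because the values are RPKM. The pair of libraries of a group differed by more than sampling noise (chi-square per gene 3.27 at day 0, 4.45 at day 4 and 2.46 at day 18) and was counted as 2 samples.

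Genes were named by a rule. It took the 12 largest rises and falls that were called, averaged 3 or more on the log2 scale and did not overlap between groups. Symbols that are model names (Gm or Rik) were left out of these. From each of 45 lists it took the 3 called members with the smallest p in the direction with more calls. These members had to average 1 or more on the log2 scale. It also took 24 fixed genes. The members, the 47 lists and the tests were chosen with earlier results of these data known. The fit was tested on simulated data, and 19 alternatives were run. Python 3.11.15 with pandas 2.3.3, numpy 2.4.6 and scipy 1.17.1 handled the tables, and matplotlib 3.10.9 drew the figures. A few of the genes so named are left unreported.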

Additional observations from a re-analysis of the deposited data

How the results depend on the processing

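Most alternatives left the counts of 1996 rises, 1729 falls, 373 genes over 1.5-fold and 591 genes of at least 2-fold within 1.5 times of these values, and no named gene turned its direction. The exceptions were as follows. With 1 RPM added before taking logs, 378 genes were called at least 2-fold changed. On the RPKM scale, where the added 0.1 weighs more on long genes, 789 genes fell, 194 passed 1.5-fold and 306 were at least 2-fold changed. With 1 spread assumed for genes of all levels 989 genes rose, 363 fell and 195 passed 1.5-fold. The cause of these shifts was not tested. Leaving out each library in turn gave 1368 to 1934 rises, 1158 to 1690 falls, 245 to 378 genes over 1.5-fold and 429 to 608 of at least 2-fold, with the lowest 1.5-fold count without day 18 A. Library totals alone gave 2239 rises and 1338 falls (median of all genes 0.0379). When genes with whole reads alone were tested, 1376 of 9446 genes rose, and lists had fewer members by construction. The count of rises was 7 of 13 tested for acute phase genes, 4 of 6 for MHC class II and 6 of 15 for Fc receptor genes. It was 9 of 20 for C-type lectins, 5 of 11 for classical monocyte genes and 12 of 23 for lysosomal genes. For lipid handling it was 7 of 17, for heat shock 2 of 8 and for erythroid genes 2 of 8. Of 142 named genes, 8 lost their call on the RPKM scale and 19 with 1 spread for all levels.

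The labels do not say whether the column letters pair the libraries. A minus B differences correlated at -0.018, 0.0018 and -0.042 across genes between the groups. Genes are not independent replicates, so these values cannot decide whether the libraries were paired. With the replicate block by letter, 1966 genes rose, 1694 fell, 370 passed 1.5-fold and 589 were at least 2-fold changed.

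With 2 libraries per group a change that is small beside the spread could not be called, and genes with a few reads at day 4 have wide counting intervals.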

Other observations

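Genes outside every list, chosen after their values were seen, showed further wide changes. Spon1, a secreted matrix protein, stood at 1.59 and 1.37 RPM at day 4 and 41.8 and 44.5 RPM at day 18 (log2 fold change 4.78, SE 0.23, adjusted p = 3.59e-15). Cd38, an enzyme that breaks down NAD, stood at 0.728 and 1.42 RPM against 24.8 and 20.7 RPM (log2 fold change 4.34, SE 0.26, adjusted p = 3.62e-13), and Acod1, which makes itaconate in activated macrophages, at 0.409 and 0.686 RPM against 13.5 and 11.2 RPM (log2 fold change 4.29, SE 0.35, adjusted p = 1.34e-10). All 3 were low in both day 4 libraries and high in both day 18 libraries.

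Cd209a was not the only member of its lectin family to fall, and the other members were at low levels. Cd209b, Cd209c, Cd209f and Cd209g fell with log2 fold changes of -1.31, -1.81, -1.65 and -2.90 (adjusted p = 0.022, 0.00266, 0.0075 and 0.000311), and Cd209d was not called (log2 fold change -1.33, SE 0.64, adjusted p = 0.137). The Cd209 genes are alike in sequence, and Cd209f and Cd209g carry fractional reads.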
